A study of Caenorhabditis elegans with 2 samples.

Results

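The regions described here are 401 of 30000 candidate binding regions of the zinc finger protein ZTF-3 that lay below the deposited peak threshold and were nevertheless covered by strong regions of both replicates. They were chosen by 3 conditions on the deposited lists. A region had to be on the pooled list of peaks and background and not on the thresholded list. Its summit, the position of highest signal, had to lie inside 1 of the 2000 strongest regions of the replicate 4 list. It also had to lie inside 1 of the 2000 strongest regions of the replicate 5 list. The thresholded list holds the strongest pooled regions by signal, and the remaining 29065 pooled candidates were not covered by both sets of 2000.

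ZTF-3 binding was mapped by ChIP-seq, the sequencing of immunoprecipitated chromatin, in whole Caenorhabditis elegans of mixed sex, as young adults at 58 h, synchronised as starved L1 larvae after bleaching. The strain was OP614, with the genotype unc-119(tm4063) and the integrated transgene wgIs614, which carries ztf-3::TY1::EGFP::3xFLAG together with unc-119(+) as a rescue. Both samples, biological replicates 4 and 5, were of this strain, were precipitated with an antibody against GFP and share 1 control. There was no second condition, and no untagged strain was analysed here, so signal that the tag or antibody gives without ZTF-3 cannot be told apart from ZTF-3 signal.

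In ChIP-seq, DNA fragments bound by a protein are enriched with an antibody, sequenced and piled up on the genome, and a peak caller lists the places of highest pile-up. Weak and strong candidates are listed together. The irreproducible discovery rate (IDR) then compares ranks between lists to choose those to keep. A kept peak need not match in rank between replicates 4 and 5, and the last one here ranked 289 and 14016. ZTF-3 belongs to the zinc finger proteins, many of which bind DNA through short finger modules. Genes for tRNAs and some other small RNAs are transcribed by RNA polymerase III, which for tRNA genes depends on promoter elements inside the gene, the A box and the B box.

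Windows of 50 bp to each side of the pooled summits show what these regions look like. All are read from RefSeq's genome sequence of WBcel235, the same assembly as ce11, on the plus strand, 5′ to 3′, and are named by the protein-coding gene with the nearest transcription start site (TSS). The first set is shown because the regions whose covering replicate regions ranked highest head the order used here. Capitals mark 7 words on either strand: ACACAC from AC runs, GAGAGA from GA runs, AGAGAC next to them, ACGCAG with its shifted form GACGCA, the longer AGACGCAG that spans both, and AGAGACGC. The longer words contain shorter ones, so a single stretch can count for several. All 3 summits lay 200 to 203 bp from a thresholded summit. They are at III:4900065-4900165 between genes, at III:1921541-1921641 in an intron of pqn-41 and at IV:2993650-2993750 in an intron of Y54G2A.26.
tag-340: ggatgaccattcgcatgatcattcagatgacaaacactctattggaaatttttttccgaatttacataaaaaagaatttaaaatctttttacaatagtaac
pqn-41: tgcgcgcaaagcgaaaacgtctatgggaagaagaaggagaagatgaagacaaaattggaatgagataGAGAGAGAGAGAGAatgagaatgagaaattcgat
Y54G2A.26: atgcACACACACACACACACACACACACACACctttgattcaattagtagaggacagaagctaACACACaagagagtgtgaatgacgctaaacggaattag
The first window holds none of the 7 words, the second a GA repeat and the third a long run of AC. Of all 401 windows 15.2% held GAGAGA and 7.48% held ACACAC.

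The next windows are the first 6 free of protein-coding exons that hold AGACGCAG, a word known from earlier results on the thresholded peaks; capitals mark the same 7 words. They lie at III:5506438-5506538, III:9826157-9826257, V:9095850-9095950, X:2227305-2227405, V:9099-9199 and II:5330233-5330333, in the order printed. The vhp-1 window is in an intron and the other 5 are intergenic.
R02F2.1: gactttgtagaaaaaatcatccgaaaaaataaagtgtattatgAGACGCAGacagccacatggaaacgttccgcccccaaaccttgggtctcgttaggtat
ZK632.9: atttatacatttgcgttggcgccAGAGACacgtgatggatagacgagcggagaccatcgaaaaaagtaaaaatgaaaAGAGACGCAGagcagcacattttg
F21C10.10: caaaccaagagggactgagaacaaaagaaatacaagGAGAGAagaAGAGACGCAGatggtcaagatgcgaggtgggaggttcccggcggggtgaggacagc
lin-32: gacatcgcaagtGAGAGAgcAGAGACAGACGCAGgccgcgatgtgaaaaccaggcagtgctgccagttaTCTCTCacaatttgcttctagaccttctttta
B0348.10: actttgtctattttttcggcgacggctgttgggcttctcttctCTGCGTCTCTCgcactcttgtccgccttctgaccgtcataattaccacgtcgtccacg
vhp-1: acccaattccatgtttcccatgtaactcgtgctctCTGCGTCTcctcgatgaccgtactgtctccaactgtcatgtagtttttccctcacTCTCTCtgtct
In the ZK632.9, F21C10.10, lin-32 and B0348.10 windows AGAGAC overlaps AGACGCAG or stands directly before it. In the B0348.10 and vhp-1 windows AGACGCAG is on the minus strand.

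Windows at tRNA genes are shown because tRNA genes were the small RNA class most often found beside these regions. They were taken from lead regions, described below, whose window holds the B box letters GTTCGANNC, marked here by capitals. Only 8 of the 47 windows at tRNA genes hold these letters, and 6 of the 27 of lead regions. Of the first 5 such lead windows those at tRNA-Ile genes are shown. The gcy-33 window lies at V:12002235-12002335, with its summit 25 bp past the end of the tRNA-Ile gene F57F5.t1. The C02B4.3 window lies at X:12661182-12661282, with its summit inside the tRNA-Ile gene C02B4.t1. The wdr-83 window lies at II:5032764-5032864, with its summit inside the tRNA-Ile gene F33G12.t1 in an intron of F33G12.3.
gcy-33: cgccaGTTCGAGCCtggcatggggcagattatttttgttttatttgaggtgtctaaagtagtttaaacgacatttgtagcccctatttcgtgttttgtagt
C02B4.3: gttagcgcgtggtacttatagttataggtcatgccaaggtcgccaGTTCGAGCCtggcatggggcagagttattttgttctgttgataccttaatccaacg
wdr-83: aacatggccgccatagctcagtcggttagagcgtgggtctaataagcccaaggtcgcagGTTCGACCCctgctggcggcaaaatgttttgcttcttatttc
The first and second share 28 bases in 1 run, across their B boxes, while the wdr-83 window shares at most 10 bases in a run with either. Copies of a tRNA gene are close to identical, and how the authors' alignment placed reads that fit several copies is not given in the sources used here, so values at tRNA genes are uncertain by that much.

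The 401 regions were of 2 kinds. For 237 of them no stronger pooled summit lay within 250 bp; these are called lead regions here. The other 164 stood within 250 bp of a stronger pooled summit and are called side regions, 40.9% of the 401 (exact 95% interval 36.0 to 45.9). Of all 30000 pooled candidates, 8.85% stood so. This division was made after the data were seen. Intervals on shares are exact Clopper-Pearson binomial intervals and cover counting error only, since regions of 1 pooled list are not replicates of a condition.

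Side regions mostly flanked a thresholded peak. A thresholded summit lay within 1000 bp of 108 of the 401 regions, 26.9% (22.7 to 31.6). The share of all pooled candidates, thresholded peaks included, was 3.11%, and that of the 29065 other candidates was 1.00% (0.890 to 1.12). In 105 of the 108 the distance was 199 to 240 bp, with a median of 203 bp. No pooled summits lie closer together than 199 bp, and a replicate region is 450 bp wide with its summit 225 bp from its start, so a single replicate region can cover a thresholded summit and the side summit beside it. Of the 401 regions 297 shared no replicate region with a thresholded summit. Another 53 side regions lay within 250 bp of a lead region, and 158 of the 164 lay that near to a thresholded peak, a lead region or both.

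**Figure D1:**
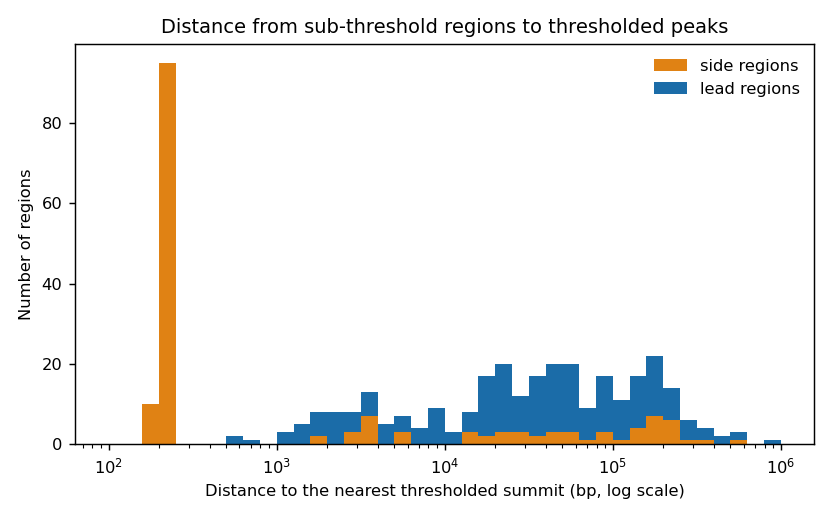
Distance from each of the 401 sub-threshold regions to the nearest thresholded summit, in bp on a log scale (x), against the number of regions (y, stacked by kind). The 105 side regions at 199 to 240 bp form the tall bars on the left, and lead regions spread from 545 bp upward.

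The condition that a summit lie inside a region is looser than a match of summits. In 153 of the 401 regions both replicate lists had a summit of their own within 100 bp of the pooled summit, 145 of them lead and 8 of them side. For the other 248 the word reproduced is shown for the region only. Summits of weaker replicate regions were not searched.

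The values that chose the regions were the replicate ranks and the place below the threshold, and they are given as a description only. A signal value is the authors' peak strength and is comparable only within 1 list. Lead regions had pooled ranks up to 3191 with a median of 779, and pooled signals from 44.2 to 74.7 with a median of 65.5. Side regions had a median pooled rank of 5928.5 and a median signal of 37.6. Thresholded peaks ran from a signal of 74.7 to 1860 with a median of 95.1. All 86 regions with a pooled rank above 5000, and all 45 regions with both replicate ranks of 500 or better, were side regions. The lead regions were of middle rank in both replicates, with a median of 1117 in replicate 4 and 968 in replicate 5. When as many of the strongest regions of a replicate are taken as there are thresholded peaks, 11 of the 237 were among those of replicate 4 and 61 among those of replicate 5.

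**Figure D2:**
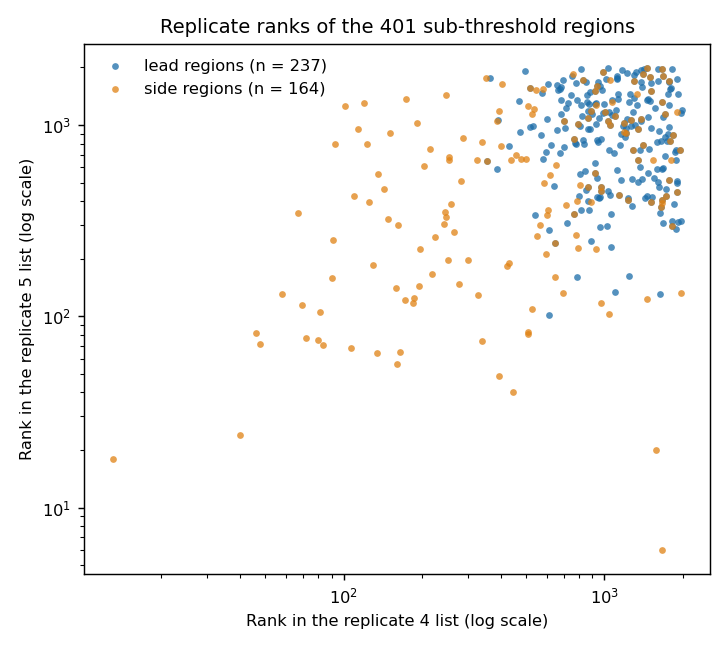
Rank in the replicate 4 list (x, log scale) against rank in the replicate 5 list (y, log scale) for the 401 sub-threshold regions, each point 1 region. Lead regions fill the corner of weak ranks, from 356 in replicate 4 and 102 in replicate 5, and every point with both ranks of 500 or better is a side region.

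Down the pooled list, coverage by both replicates ended quickly. Of the thresholded peaks 451, or 84.5%, lay in both sets of 2000, 82 in that of replicate 4 alone and 1 in that of replicate 5 alone. From the threshold to pooled rank 1000 the share was 40.6%, or 189 of 466 candidates. It was 7.60% from there to rank 2000 and 1.67% from there to rank 5000. With lead candidates alone the same 3 shares were 39.9%, 5.58% and 0.247%, and beyond rank 5000 no lead candidate was covered by both, of 4679 to rank 10000 and 17916 after it. Between the threshold and rank 2000 the 1201 candidates not in both sets were 742 in replicate 4 alone, 255 in replicate 5 alone and 204 in neither.

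At the limits the values ran without a step. The last thresholded peak, in an intron near pnp-1, had a pooled signal of 74.69 and ranked 289 in replicate 4 and 14016 in replicate 5. The first sub-threshold region, in a UTR exon with scpl-1 as nearest gene, had a pooled signal of 74.68 and ranked 519 and 972. At the rank limit, the region in an intron nearest lin-29 ranked 1984 in replicate 4 and was in, and the candidate in a coding exon nearest arrd-6 ranked 2005 in replicate 5 and was out.

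In their intergenic and coding exon shares sub-threshold regions stood between thresholded peaks and the other candidates. Their summits were intergenic in 196 of 401 cases, 48.9% (43.9 to 53.9), against 60.7% (56.4 to 64.8) of thresholded peaks and 29.9% (29.4 to 30.4) of candidates not in both sets. Of all pooled candidates 30.7% were intergenic. Candidates not in both sets but of pooled rank up to 2000 gave 38.8% (36.0 to 41.6). Their interval does not meet that of the sub-threshold regions, but the groups differ in strength, with a median pooled rank of 1368 against 779 in the lead regions. The lead regions gave 48.5% (42.003 to 55.1), so the share was nearly the same without the side regions.

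Coding exons ran the other way. They held 74 summits, 18.5% (14.8 to 22.6), against 9.36% (7.03 to 12.2) of thresholded peaks, 25.7% (23.3 to 28.3) of the candidates of rank up to 2000 and 35.7% (35.1 to 36.2) of all candidates not in both sets. Of all pooled candidates 35.0% lay in coding exons. Introns held 96 summits, 23.9% (19.8 to 28.4), with 28.5% among all pooled candidates and 25.3% (21.6 to 29.2) among thresholded peaks. UTR exons held 35, 8.73% (6.15 to 11.9), against 5.85% of pooled candidates and 4.68% (3.05 to 6.83) of thresholded peaks. The intervals for introns and UTR exons overlap those of thresholded peaks.

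Sub-threshold regions were less often than thresholded peaks between divergent genes. A divergent space lies between 2 genes that are transcribed away from each other, and so holds the promoters of both. Such spaces held 51 sub-threshold summits, 12.7% (9.62 to 16.4), and 125 thresholded summits, 23.4% (19.9 to 27.2). Of all pooled candidates 10.3% lay there, a share inside the sub-threshold interval. The candidates of rank up to 2000 gave 14.1% (12.2 to 16.2), and the lead regions 11.4% (7.64 to 16.1). Convergent spaces, between the ends of 2 genes, held 36 sub-threshold summits, 8.98% (6.37 to 12.2), which was near the 7.12% (5.08 to 9.64) of thresholded peaks and above the 4.16% (3.11 to 5.45) of the candidates of rank up to 2000. Without the side regions the convergent share was 7.17% (4.23 to 11.2), whose interval meets that of the candidates of rank up to 2000. Of all pooled candidates 3.11% lay in convergent spaces. Spaces between genes transcribed in the same direction held 108 sub-threshold summits, 26.9% (22.7 to 31.6), and 30.1% (26.3 to 34.2) of thresholded summits.

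The promoter window reached 1000 bp ahead of a protein-coding TSS and 200 bp past it, and held 156 of the 401 summits, 38.9% (34.1 to 43.9). The share was 28.6% of all pooled candidates, 46.8% (42.5 to 51.1) of thresholded peaks and 36.9% (34.2 to 39.7) of the candidates of rank up to 2000, and the sub-threshold interval overlaps the last 2. Summits lay upstream of the nearest TSS in 184 cases, 45.9% (40.9 to 50.9). The share was 40.5% of all pooled candidates, 59.9% (55.6 to 64.1) of thresholded peaks and 47.5% (44.6 to 50.3) of the candidates of rank up to 2000. In their side of the nearest TSS, as in divergent spaces, the sub-threshold regions were close to the candidates of rank up to 2000 and below thresholded peaks.

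**Figure D3:**
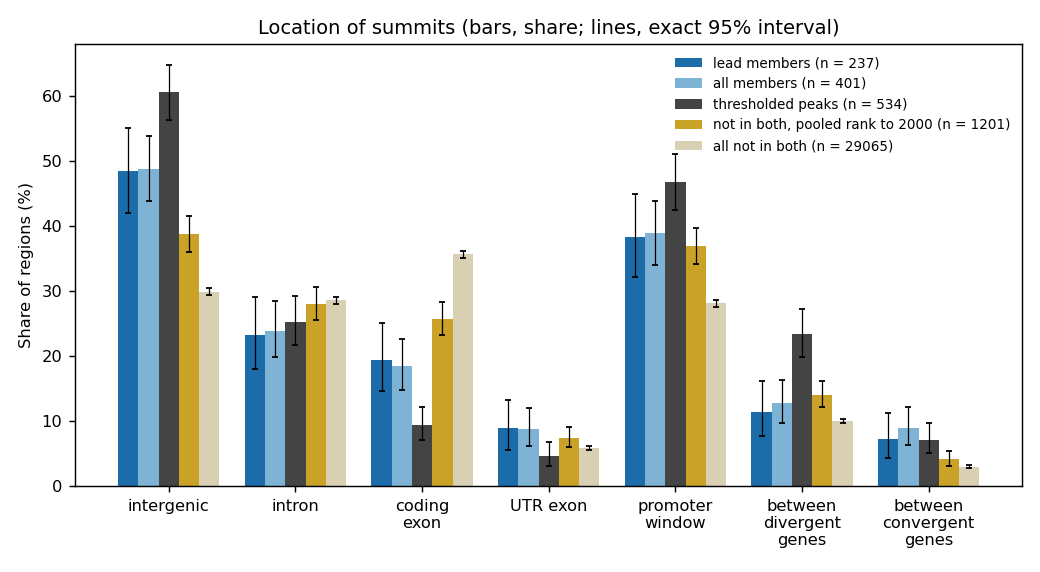
Share of summits in % (y) by location (x) for lead sub-threshold regions, all sub-threshold regions, thresholded peaks, candidates not in both sets with pooled rank up to 2000 and all candidates not in both sets; bars start at 0 and lines are exact 95% intervals. Intergenic shares run 48.5%, 48.9%, 60.7%, 38.8% and 29.9% in that order, and the space between divergent genes is higher in thresholded peaks, at 23.4%, than in the other groups.

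Non-coding RNA genes lay within 500 bp of many sub-threshold summits. A tRNA gene, which encodes an adaptor of translation, was that near to 47 summits, 11.7% (8.74 to 15.3). All pooled candidates gave 1.69%, thresholded peaks 11.05% (8.52 to 14.02), all candidates not in both sets 1.38% (1.25 to 1.52) and those of rank up to 2000 gave 7.74% (6.30 to 9.40). The lead regions alone gave 27 of 237, 11.4% (7.64 to 16.1). The sub-threshold share was therefore as high as that of thresholded peaks, and its interval meets that of the candidates of rank up to 2000.

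The 47 summits had 39 tRNA genes as their nearest, of 612 nuclear tRNA genes in the annotation, and 28 of the 47 were on the X chromosome. On X also lay 36 of the 59 thresholded summits at tRNA genes, 44 of the 93 candidates of rank up to 2000 there and 162 of all 402 candidates not in both sets there. The 27 lead summits were at 27 different genes, 16 of them on X. The nearest genes covered 16 amino acid types. The tRNA-Ile genes were nearest to 9 summits, 6 of them lead, and tRNA-Ala genes were nearest to 5. Summits are not genes here, since C02D4.t1 and C02B4.t1 (tRNA-Ile) and F49C5.t2 (tRNA-Ala) each had a lead and a side summit. The annotation holds 29 tRNA-Ile genes. Of tRNA-Arg, tRNA-Asn, tRNA-Met, tRNA-Sec and tRNA-Trp genes none was nearest to a sub-threshold summit. Counts per amino acid type were small and were singled out after they were seen.

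The summits were spread along the tRNA gene and its flanks. Relative to the direction of the tRNA gene, 12 of the 47 lay inside it, 9 upstream and 26 downstream, 55.3% (40.1 to 69.8). Of the 59 thresholded summits at tRNA genes 27 lay inside, 21 upstream and 11 downstream, 18.6% (9.69 to 30.9). The 20 side summits gave 13 downstream, 65.0% (40.8 to 84.6). The 27 lead summits gave 9 inside, 5 upstream and 13 downstream, 48.1% (28.7 to 68.1), and this interval meets that of thresholded summits. The 93 candidates of rank up to 2000 at tRNA genes gave 35.5% downstream (25.8 to 46.1).

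Named by the order of the weaker replicate rank, the first 6 regions at tRNA genes were all side regions. They lay nearest to C02B4.t2 (tRNA-Tyr), B0228.t1 (tRNA-Gln), T21B4.t1 (tRNA-Ile), Y38E10A.t1 (tRNA-Ala), Y39B6A.t9 (tRNA-Phe) and Y110A2AL.t2 (tRNA-Leu), with pooled signals from 23.1 to 43.5. Among the lead regions, the one at F53F8.t1, a tRNA-Cys gene at V:20694121-20694192, had signals of 55.3 and 22.8 in replicates 4 and 5 and a pooled signal of 74.0, with its summit 41 bp downstream of the gene. The lead region at F11A1.t1, a tRNA-Glu gene, had a pooled signal of 74.2, the highest of the 47.

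Small nucleolar RNAs, which guide chemical changes of other RNAs, came next. A snoRNA gene lay near 18 summits, 4.49% (2.68 to 7.002), of which 10 were lead. All pooled candidates gave 0.947%, thresholded peaks 7.87% (5.73 to 10.5) and the candidates of rank up to 2000 gave 2.58% (1.76 to 3.64). The interval of the sub-threshold regions overlaps both of the latter. The first 6 in order, all side regions, were at ZK994.7, T19B4.8, T08B2.13, F01D5.12, Y55F3BR.9 and F38E11.14, with pooled signals from 26.4 to 54.5. In 5 lead regions the summit was inside the snoRNA gene.

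Small nuclear RNAs act in splicing, and in this annotation the class includes the SL2 spliced leader genes (sls-2), whose RNAs are joined to the start of many worm mRNAs. Genes of this class lay near 6 summits, 1.496% (0.551 to 3.23), with 0.303% among all pooled candidates and 3.00% (1.72 to 4.82) among thresholded peaks. The candidates of rank up to 2000 gave 0.749% (0.343 to 1.42), an interval that meets the sub-threshold one, and lead regions 0.844% (0.102 to 3.01). The 6 were at sls-2.8, sls-2.1, sls-2.9, F38E11.11, Y57G11C.35 and F32B5.9, and only the last 2 were lead regions. The 3 at sls-2 genes all lay beside a stronger summit.

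MicroRNA genes lay near 5 summits, 1.25% (0.406 to 2.89), at 3 genes, against 0.423% of pooled candidates and 1.12% (0.413 to 2.43) of thresholded peaks. The candidates of rank up to 2000 gave 0.749% (0.343 to 1.42), an interval that meets the sub-threshold one, and lead regions 1.27% (0.262 to 3.65). At cel-mir-52, a member of the mir-51 family, the lead summit lay inside the gene with signals of 57.8 (replicate 4), 18.8 (replicate 5) and 72.6 (pooled), and a side summit lay 109 bp from it. At cel-mir-4936 the lead summit, also inside the gene, had signals of 48.3, 18.7 and 66.7, again with a side summit. At cel-mir-239b the only summit lay 394 bp from the gene. Both summits of each pair are counted in the share although they lie in the same replicate regions.

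Genes of piRNAs, small RNAs of the germline, lay near 10 summits, 2.49% (1.20 to 4.54), as often as in all pooled candidates, at 2.36%, and thresholded peaks, at 2.25% (1.17 to 3.89). Other non-coding RNA genes, mostly long or of no known role, lay near 94, 23.4% (19.4 to 27.9), against 10.4% of all pooled candidates, 29.96% (26.1 to 34.04) of thresholded peaks and 17.3% (15.2 to 19.6) of the candidates of rank up to 2000. Here the kinds of region differed in value, with 19.4% (14.6 to 25.03) of lead and 29.3% (22.4 to 36.9) of side regions, and the lead share was close to that of the other candidates of rank up to 2000. No sub-threshold summit had an rRNA gene within 500 bp, 0 of 401, which allows a share of up to 0.748%. Only 1 of all 30000 pooled candidates had one, so this 0 says nothing particular about these regions.

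**Figure D4:**
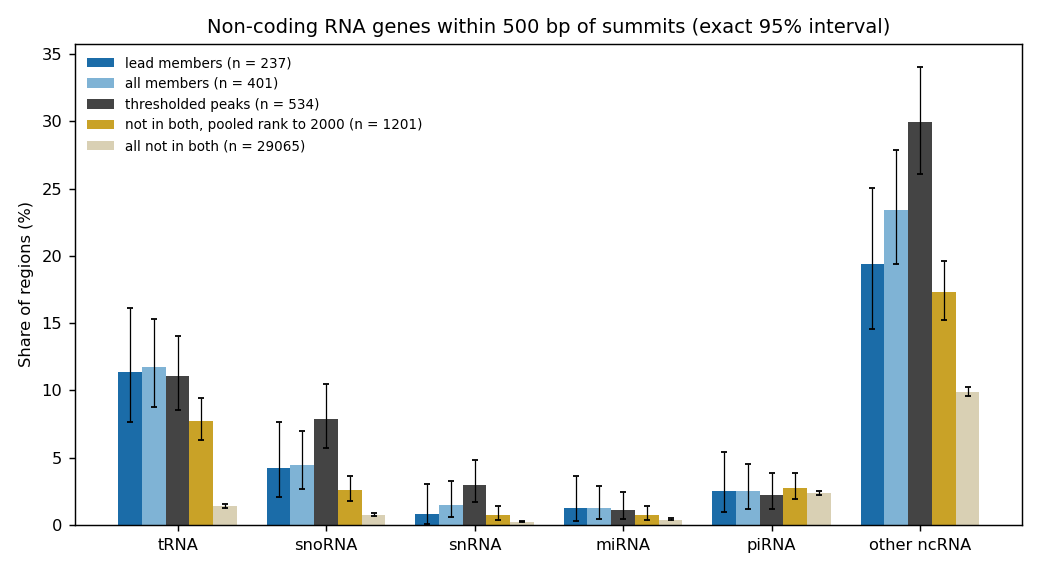
Share of summits in % (y) with a gene of each non-coding RNA class within 500 bp (x), for the same 5 groups; bars start at 0 and lines are exact 95% intervals. The tRNA bars of lead regions, all sub-threshold regions and thresholded peaks stand at 11.4%, 11.7% and 11.05%, and the piRNA bars of all 5 groups lie between 2.25% and 2.75%.

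The order by replicate rank put regions beside thresholded peaks first. A replicate region that covers a side summit can also cover the stronger summit beside it. The replicate values of side regions are therefore no measure of the side summit alone. All of the first 25 regions were side regions, 199 to 222 bp from a thresholded summit. The first, near tag-340 at III:4899893-4900336, had signals of 184 in replicate 4 and 69.1 in replicate 5, at ranks 13 and 18, and a pooled signal of 27.03 at rank 16363. The replicate regions that cover this summit, 393 bp upstream of a TSS, thus ranked near the top of their lists. The pooled region itself ranked in the lower part of the pooled list. A thresholded summit lay about 200 bp away, and how much of the replicate signal belongs to which summit was not tested. The difference in rank is therefore no finding about this site. The second, in an intron of pqn-41, a glutamine-rich protein, had 143 and 64.1 in the replicates and 69.9 in the pooled list.

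Among these 25 were genes of known function, and their replicate signals are again those of the covering replicate regions. The region 186 bp upstream of the nearest TSS of hsp-90, the Hsp90 chaperone, had signals of 117 (replicate 4), 37.5 (replicate 5) and 34.8 (pooled). The region 30 bp upstream of dnj-13, a DnaJ-type co-chaperone, had 108, 43.5 and 49.1. The region near aak-2, a catalytic subunit of the AMP-activated kinase, had 84.5, 50.5 and 23.7. The others had as nearest genes Y41G9A.17, Y111B2A.12, pxn-1, wwp-1, Y43F8B.2, Y54G2A.26, Y55F3AR.2, F09E10.1, Y39E4B.6, F52G3.1, vig-1, ppm-2, pamn-1, K08F11.1, prmt-5, Y49A3A.3, F19B2.5, drap-1, F58D5.5 and F16G10.6. Non-coding genes within 500 bp of them included tts-1 near F09E10.1 and F26F4.14 near tag-340.

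The lead regions named different genes, and these are given as the first 25 lead regions in the same order, a choice made after the values were seen. The strongest lead region of replicate 5 lay in an intron of daf-5, a Sno/Ski-type regulator of dauer formation, at II:14040343-14040786. Its signals were 54.8 (replicate 4), 39.3 (replicate 5) and 72.6 (pooled), at ranks 614, 102 and 581. The strongest lead region of replicate 4, near M163.1 at X:14500564-14501007, had 65.0, 23.4 and 74.4, at ranks 356, 651 and 538. The 2 replicates thus placed their strongest lead regions at different loci.

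The summit 1666 bp downstream of the TSS of xbp-1 lay between genes. This gene encodes a transcription factor of the unfolded protein response of the endoplasmic reticulum. The summit had signals of 51.5 (replicate 4), 27.4 (replicate 5) and 73.1 (pooled), with a thresholded summit 1758 bp away. A side summit in the same replicate regions had asd-1 as nearest gene and lay 1590 bp upstream of its TSS. The summit 1446 bp downstream of the TSS of atfs-1, a transcription factor of the mitochondrial unfolded protein response, also lay between genes. It had 52.4, 28.3 and 72.8, with a thresholded summit 2521 bp away. Neither the xbp-1 nor the atfs-1 summit lay in the promoter window of a protein-coding gene. The summit 421 bp upstream of ubl-5, a ubiquitin-like protein of the same mitochondrial response, had 49.9, 22.3 and 58.7, with the nearest thresholded summit 97723 bp away.

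Further regions of the 25 lay in or near enzyme, kinase and motor protein genes. The summit 72 bp downstream of the TSS of hpd-1, a tyrosine breakdown enzyme, lay in a coding exon with signals of 51.3, 22.2 and 61.0 in the replicate 4, replicate 5 and pooled lists. That 2232 bp into klp-7, a microtubule-depolymerising kinesin, also lay in a coding exon, with 50.6, 26.2 and 66.2. The summit 211 bp upstream of pkc-3, the atypical protein kinase C, had 50.1, 22.1 and 73.4, and that 4692 bp upstream of aakg-3, a gamma subunit of the AMP-activated kinase, had 54.9, 29.0 and 60.9. The other lead regions of the 25 had as nearest or host genes mstr-1, tent-5, F26A3.4, T28F4.5, cpz-1, olrn-1, F53F8.4, ZK632.9, F55A11.6, H37A05.4, ncl-1, hphd-1, acs-13, C53B7.6, fbxb-72 and oct-2.

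In all, 167 protein-coding genes had a sub-threshold summit in the promoter window, 2.35% of the 7110 genes with any candidate summit there. The annotation holds 19973 protein-coding genes. Of the 167 genes 52 also had a thresholded summit in the window, 31.1% of these genes and 16.8% of the 309 genes of thresholded peaks. Lead regions gave 102 genes, and 100 of these had no thresholded summit in the window.

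Of 35 gene lists 13 had at least 1 gene with a sub-threshold summit in the promoter window, 18 genes in all. Cytosolic ribosomal proteins had 3 of the 42 with any candidate, 7.14% against the 2.35% of all such genes, and 13 of them had a thresholded summit. All 3 were lead regions with no thresholded summit in the window. At rpl-43 the signals were 43.2 (replicate 4), 26.3 (replicate 5) and 74.2 (pooled), at rps-24 they were 48.4, 22.05 and 71.9, and at rpl-41.2 they were 43.9, 24.995 and 69.4. Pooled signals of all lead regions ran from 44.2 to 74.7, below the thresholded signals by the rule. Nearness to the threshold is therefore no trait of these 3 genes.

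Among regulators of transcription, bHLH factors had 2 of 11 genes, mxl-3 and hlh-11, the latter beside a thresholded peak. Homeobox factors had 1 of 33, ceh-38, with signals of 53.7, 18.7 and 74.4 in the replicate 4, replicate 5 and pooled lists. The ztf zinc finger genes had 1 of 13, ztf-8, with 45.0, 21.6 and 68.9. Splicing factors had 2 of 24, rsp-1 and rsp-2, SR proteins that share the 1 region at II:11452919-11453362, so a single summit accounts for both. Histones had 1 of 17, his-59, a gene family of near-identical copies whose assignment is uncertain.

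Protein quality control gave 1 gene a list. These were hsp-90 of 14 heat shock protein genes and cct-8 of 7 chaperonin genes, both beside a thresholded peak, and the lead region at pas-5, a proteasome subunit, of 14. The respiratory chain had 1 of 29, nduf-9, whose region, at III:3248947-3249390, is also the one at cel-mir-4936. The collagen list had 1 of 46, col-85, the chemoreceptors 1 of 211, srh-2, and the F-box genes 2 of 76, fbxa-108 and fbxb-72. The col-85 region is a side region 213 bp from a thresholded summit, and srh-2 also had a thresholded summit in its promoter window. The 22 lists without a gene included nuclear hormone receptors and the 6 tissue marker lists. They also included C-type lectins, with 68 genes with any candidate, neuropeptides with 54, mitochondrial ribosomal proteins with 36 and tRNA synthetases with 17. A list of 1 to 3 genes gives no more than these counts.

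By chromosome, the X held 98 of the 401 regions, 24.4% (20.3 to 28.9), against 18.9% of all pooled candidates, 23.03% (19.5 to 26.8) of thresholded peaks and 21.4% (19.1 to 23.8) of the candidates of rank up to 2000. Chromosome IV held 45, 11.2% (8.30 to 14.7), against 15.1%, and chromosome V held 59, 14.7% (11.4 to 18.6), against 19.8%. The thresholded peaks gave 11.05% (8.52 to 14.02) and 14.6% (11.7 to 17.9) there, and on chromosome IV the candidates of rank up to 2000 gave 17.7% (15.5 to 19.9), an interval apart from that of the sub-threshold regions. Chromosomes I, II and III held 62, 67 and 70 regions, 15.5%, 16.7% and 17.5%, beside 15.1%, 15.9% and 15.2% of all pooled candidates. The lead regions were 23.2% on X and 11.8% (7.99588 to 16.6) on IV, and the latter interval meets that of the candidates of rank up to 2000.

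Runs of GT or CA lay near a larger share of sub-threshold summits than of the candidates of rank up to 2000, a group that differs from them in strength. A perfect run of 20 bp or more lay within 200 bp of 13 summits, 3.24% (1.74 to 5.48), against 0.507% of all pooled candidates, 0.749% (0.343 to 1.42) of the candidates of rank up to 2000 and 6.55% (4.61 to 8.998) of thresholded peaks. Of the lead regions 7 had one, 2.95% (1.20 to 5.99), and that interval meets that of the candidates of rank up to 2000. The Y54G2A.26 window printed above holds such a run, 203 bp from a thresholded summit. Runs of AG or CT lay near 4 summits, 0.998% (0.272 to 2.53), against 0.407% of all pooled candidates, 0.749% (0.343 to 1.42) of the candidates of rank up to 2000 and 1.31% (0.529 to 2.68) of thresholded peaks.

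Short words in these windows around the summits, counted on either strand, gave lower shares than in thresholded peaks for the 7 words known from those peaks. The word AGACGCAG stood in 12 windows, 2.99% (1.56 to 5.17), against 1.26% of all pooled windows, 7.68% (5.57 to 10.3) of thresholded windows and 2.498% (1.69 to 3.55) of those of candidates of rank up to 2000. ACGCAG stood in 19, 4.74% (2.88 to 7.30), against 3.45% of all, 14.04% (11.2 to 17.3) of thresholded windows and 5.75% (4.50 to 7.21) of candidates of rank up to 2000. GACGCA stood in 21, 5.24% (3.27 to 7.89), against 3.44%, 12.4% (9.69 to 15.5) and 4.83% (3.69 to 6.20) in the same order. ACACAC stood in 30, 7.48% (5.104 to 10.5), against 5.42%, 17.6% (14.5 to 21.1) and 8.66% (7.13 to 10.4). For these 4 words the interval of the sub-threshold windows lies below that of thresholded windows and meets that of the candidates of rank up to 2000. The words were first found in the thresholded peaks, so their share there is no independent evidence.

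AGAGAC stood in 38 windows, 9.48% (6.79 to 12.8), against 5.31% of all, 18.7% (15.5 to 22.3) of thresholded windows and 8.99% (7.43 to 10.8) of candidates of rank up to 2000, with 12.2% (8.35 to 17.1) of lead and 5.49% (2.54 to 10.2) of side windows. AGAGACGC stood in 7, 1.75%, against 0.790%, 5.43% and 1.58% in the same order, and GAGAGA in 61, 15.2% (11.8 to 19.1), against 8.55%, 21.9% (18.5 to 25.7) and 13.99% (12.1 to 16.1). Of the textbook elements, GATAAG, read by GATA factors, stood in 16 windows, 3.99%, against 4.22% of all, 3.37% of thresholded windows and 5.41% of candidates of rank up to 2000. The E-box CACGTG stood in 15, 3.74%, against 2.72%, 5.24% and 4.08%. The B box letters stood in 12, 2.99%, against 1.44%, 4.87% and 3.91%, and 8 of these were among the 47 windows at tRNA genes. The median G and C content of the windows was 42.6% in the sub-threshold regions, 43.6% in lead regions, 48.5% in thresholded peaks and 44.6% in candidates of rank up to 2000, and its part in the word counts was not tested.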

How the data were processed

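The deposited lists hold, per the file headers, candidate regions of each replicate, of both replicates pooled, and the peaks kept by IDR thresholding. The deposited signal (column 7) is the peak caller's strength, the deposited −log10 q-value (column 9) its significance, and the deposited summit offset is in bp from the region start. Which caller and aligner were used, and in what version, is not stated in the labels or headers. Coordinates are ce11, per the labels, printed 1-based. The lists carry no read counts, so depth is unknown and no precision of a signal can be given.

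Summits were placed on the Ensembl 115 annotation of WBcel235 with Python 3.11.15, pandas 2.3.3, numpy 2.4.6 and scipy 1.17.1. A region of the pooled list was taken when it was not thresholded and its summit lay inside 1 of the 2000 regions of highest signal of each replicate. Location used protein-coding genes only; RNA genes were counted within 500 bp. RefSeq gave tRNA amino acid types for 607 of 612 genes. Overlap code was tested on simulated data. Shares carry exact Clopper-Pearson 95% intervals, and a count of 0 allows 3 counts of the total; both cover counting error only. No p-value was computed, since both samples form 1 group. The labels give the samples separate biosample records.

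The regions, gene lists and words were chosen with earlier results of these data known. Genes were named by the order of the larger of the 2 replicate ranks: the nearest gene of the first 25 regions, the first 6 per small RNA class and up to 4 per list. Sequence windows followed that order, outside chromosome I and without any protein-coding exon in the window, which is stricter than a summit outside exons; of the first 8 such windows 3 are shown, 2 of them the ones that hold a word. The tRNA windows and the division into lead and side regions were chosen after the data were seen. Alternatives were the number of strongest regions, the match of summits, each replicate alone, distances and windows.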

Additional observations from a re-analysis of the deposited data

How the results depend on the processing

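The number of regions depended most on how support was defined. It was 143 with the 1000 strongest regions of each replicate, 666 with the 3000 and 1160 with the 5000 strongest, 153 with replicate summits within 100 bp, 395 with a reciprocal overlap of 50%, and 1652 to 1884 with 1 replicate left out. Without side regions it was 237, a setting chosen after the data were seen. Fewer or more regions follow from each of these definitions by construction.

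The intergenic share was 43.4% with the 3000 and 40.6% with the 5000 strongest and 36.0% to 37.9% with 1 replicate left out. The coding exon share was 24.7% with the 5000 strongest and 26.2% to 28.7% with 1 replicate left out. The tRNA share was 7.41% and 5.02% to 7.80% in the same settings. The snoRNA share was 7.69% with the 1000 strongest, and with 1 replicate left out its lowest value was 2.48% and its highest 3.13%. The snRNA share was 3.50% with the 1000 strongest. The share near other non-coding RNA was 28.7% with the 1000 and 16.8% with the 5000 strongest, 14.5% to 19.3% with 1 replicate left out, 19.1% without regions within 1000 bp of a thresholded summit and 19.2% without those that share a replicate region with one, the last chosen after the data were seen. With RNA genes within 200 bp it was 18.2%, and the piRNA share 0.748%. The promoter share was 26.2% from 500 bp upstream to 100 bp downstream of the TSS and 55.6% from 2000 bp upstream, and list genes numbered 10 and, by nearest TSS, 46 in place of 18. For the shares that moved with the number of regions or with a replicate, the cause was not tested. The other 105 of these recomputed values moved by less than the counting interval, or for counts by less than 1.5 times. With runs of 12 bp or more the share near GT or CA runs was 6.23% in place of 3.24%, and that near AG or CT runs 5.49% in place of 0.998%. With windows of 100 bp to each side AGAGAC stood in 13.97%, ACGCAG in 8.48%, GAGAGA in 23.2%, ACACAC in 13.5%, GACGCA in 9.98%, GATAAG in 10.2%, CACGTG in 6.48% and the B box letters in 5.99%. Longer windows and shorter runs can only raise these shares. No paired analysis was possible because there is only 1 group of 2 samples. Unknown depth limits every value.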
